A study of Mus musculus with 11 samples.

Results

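The genes described are 10 markers of neural stem cells and of the neural crest: Nes, Msi1, Sox2, Sox9, Prom1, Pax6, Olig2, Tfap2a, Pax3 and Vim. They were chosen by symbol, as every probe set that the platform annotation gives 1 symbol only and that symbol one of the 10. This took 26 of the 45101 probe sets on the array, and 10 of the 18193 genes named by a single-symbol probe set. The study measured transcripts on Affymetrix mouse arrays in cells grown as lines of interstitial cell of Cajal (ICC) progenitors and in the muscle of the stomach wall. ICC are the pacemaker cells of gut muscle.

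The tsA58 line, 2xSCS70 (3 arrays), came from H-2Kb-tsA58 mice. These mice carry a thermolabile SV40 large T antigen behind an interferon-inducible H-2Kb promoter, and the line was kept at 39.5 °C without interferon-gamma. The C57BL/6J line, 2xSCS2F10 (3 arrays), was kept at 37 °C. Both grew in neural stem cell proliferation medium, which held 5% chick embryo extract for the C57BL/6J line only. Each line is 1 clone. Gastric tunica muscularis, the dissected muscle layers, was taken from H-2Kb-tsA58 mice (3 arrays) and from C57BL/6J mice (2 arrays). Strain, transgene, clone, temperature and extract cannot be told apart between the 2 lines, nor strain and transgene between the tissues.

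Neural stem cells divide slowly and give rise to neurons and glia, and they are commonly recognised by the intermediate filaments nestin and vimentin, by the membrane protein prominin-1 (CD133) and by Sox-family transcription factors. The neural crest leaves the dorsal neural tube, migrates, and forms among other tissues the enteric nervous system of the gut wall. Its early cells depend on factors such as Pax3 and AP-2 alpha (Tfap2a). ICC of the gut muscle are of mesodermal origin, and several of these markers are also made by epithelial or mesenchymal cells.

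Levels are log2 intensities as deposited after RMA normalisation, from RNA amplified in 2 rounds, and a fold change is a difference of group means on that log2 scale, given ± its standard error (SE). The array medians lay between 4.66 and 4.84, and a level near or below them cannot be told from background. A probe set was tested if it was above the array median on at least 2 of the 11 arrays, which 26903 were. It was called when limma's p, adjusted by Benjamini-Hochberg over all of these, was under 0.05 and the change at least 2-fold. In bulk RNA, fewer cells of a type and less RNA per cell cannot be told apart. Arrays of a group correlated at 0.982 or above, apart from tsA58 tissue (0.965 to 0.977) and replicate 3 of the tsA58 line (0.966 and 0.956 with the other arrays of its group). In the lines, 4 of 5 ICC progenitor markers were above the array median on all arrays. The exception was Kit, the ICC receptor tyrosine kinase, at 3.16 to 3.79 in the tsA58 line, against 3.35 to 3.87 in the C57BL/6J line. Each tissue had all 5 above the median, with Kit at 7.34 to 8.61 for tsA58 and 6.83 to 7.47 for C57BL/6J. The mean of the 5 was 8.35 for the tsA58 line, against 8.49 for its tissue. For C57BL/6J it was 7.83 for the line, against 8.55 for tissue. Against tissue, 1 of the 5 was called higher in each line, with 1 lower for tsA58 and 2 for C57BL/6J. The list as a set thus does not single out the lines. Smooth muscle markers averaged 12.93 to 13.23 on the tsA58 tissue arrays and 11.73 to 11.86 on the C57BL/6J ones. All fold changes are relative to the bulk of transcripts on an array: levels set on the 18 hybridisation control probe sets instead moved the median of all probe sets by 0.60 (tsA58 line minus tissue), 1.23 (C57BL/6J line minus tissue), 1.49 (line minus line) and 2.13 (tissue minus tissue). Those controls averaged 7.52, 9.04 and 9.66 on the tsA58 tissue arrays, so that this setting also adds spread within the group. The part of that spread in lost calls was not tested.

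Of the 10 genes, 5 had a probe set above the array median on every array of the tsA58 line: Nes, Msi1, Sox9, Tfap2a and Vim. The C57BL/6J line had the same 5 and Pax3. Each tissue had Nes, Sox2, Sox9, Prom1 and Vim. Sox2, Prom1, Pax6, Olig2 and Pax3 were above the median on none of the tsA58 line arrays, and Sox2, Prom1, Pax6 and Olig2 on none of the C57BL/6J line arrays. Neither tissue had Pax6, Olig2 or Pax3 above the median on any array. Sox2 and Prom1 thus stood above the medians in tissue only, Pax3 in 1 line only, and Nes, Vim and Sox9 in all 4 groups. The plot of levels by array shows these patterns.

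**Figure D1:**
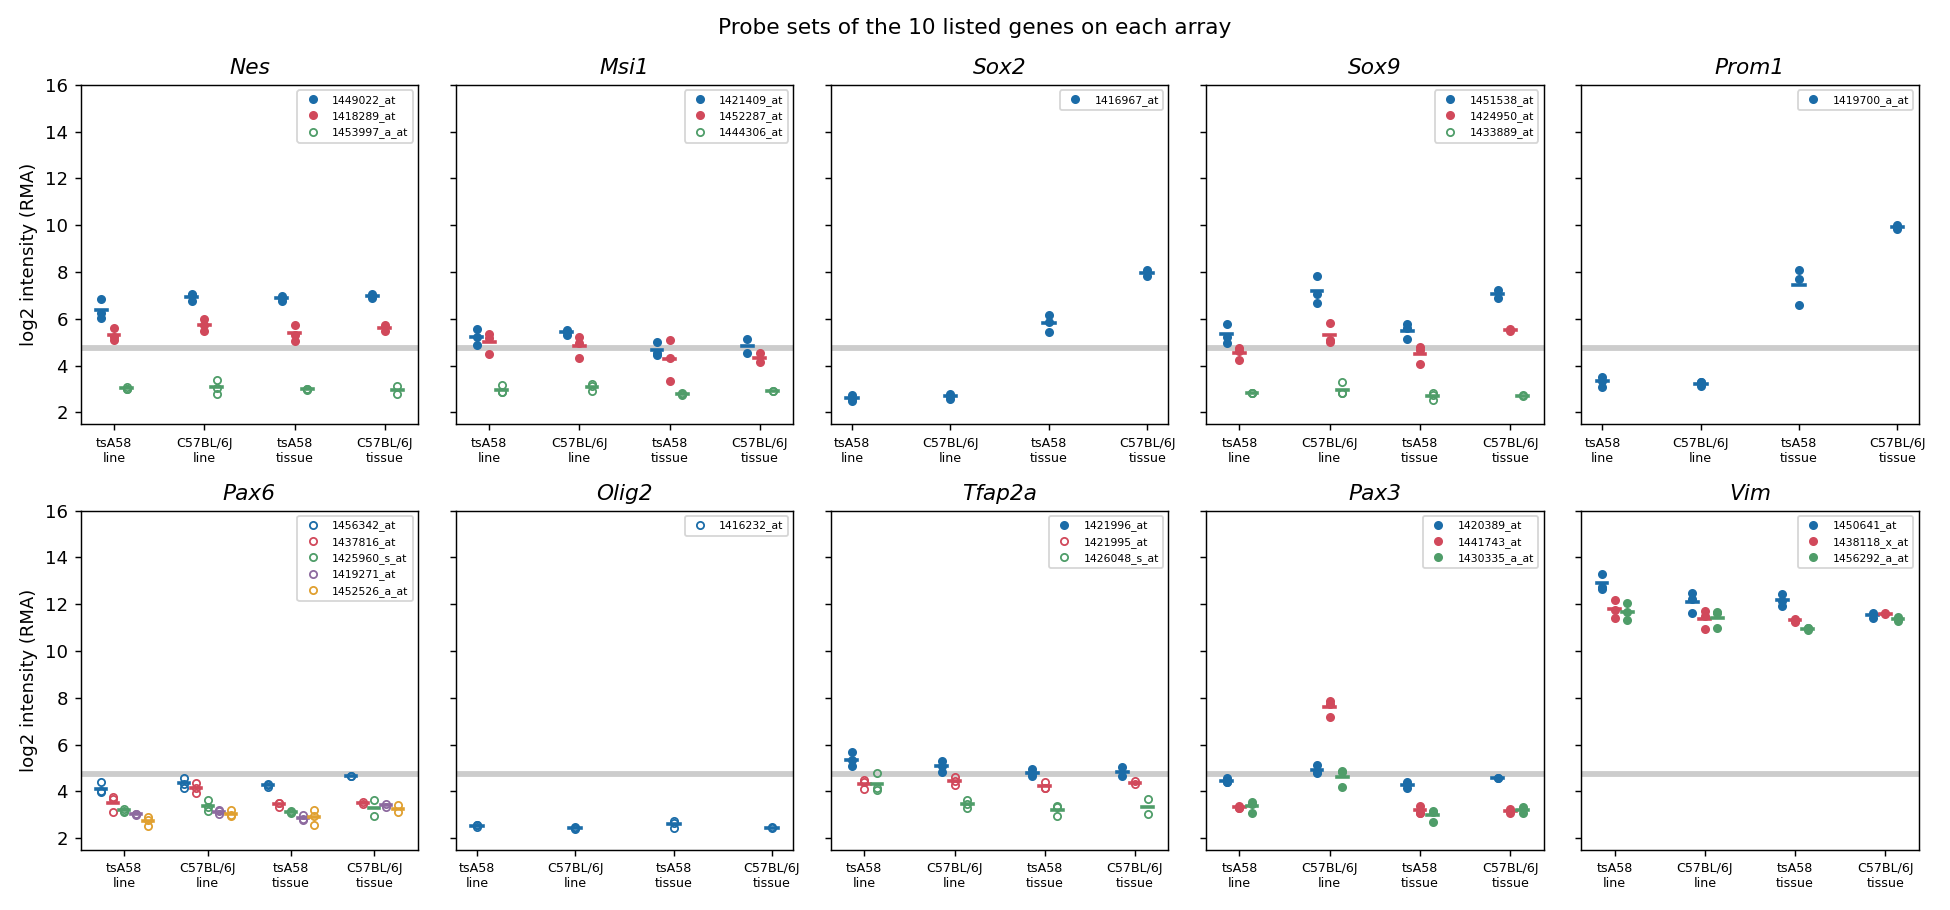
Levels of the 10 genes on each of the 11 arrays (vertical axis, log2 intensity; the groups along the horizontal axis; the grey band is the range of array medians, 4.66 to 4.84; open points mark probe sets that were not tested). Sox2 and Prom1 stand above the band in tissue only, 1 Pax3 probe set reaches 7.18 to 7.88 in the C57BL/6J line, and Vim lies at 10.88 or above on every array.

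In the tsA58 line against tissue, 2 of the 15 tested listed probe sets were called (13.3%), both lower, against 30.5% of all tested probe sets (14.6% higher, 15.9% lower). In the C57BL/6J line against tissue, 4 of 15 were called (26.7%), 2 higher and 2 lower, against 34.1% of all (17.8% higher, 16.3% lower). Between the lines 3 of 15 were called (20%), all lower in tsA58, against 14.2% of all (8.71% higher, 5.52% lower). Between the tissues 4 of 15 were called (26.7%), all lower in tsA58, against 15.9% of all (9.83% higher, 6.04% lower). The count over the list is no support for a difference. Sox2 and Prom1 passed the filter through tissue alone, and all 3 Pax3 probe sets through the C57BL/6J line alone. They were thus let in by being higher there. This favoured a call without fixing it, and Pax3 1420389_at was called in no comparison. With levels set on the hybridisation controls, 5 listed genes were called higher and 0 lower in tsA58 between the tissues, and 5 higher and 1 lower between the lines. Pax6 and Olig2 had no probe set that passed. The median change over the tested listed probe sets was 0.18 in the tsA58 line minus tissue and 0.15 in the C57BL/6J line minus tissue, where all probe sets gave 0.10 for tsA58 and 0.15 for C57BL/6J. The probe sets closest to the filter were Pax3 1430335_a_at and 1420389_at inside it, with a second-highest array 0.08 and 0.11 above the median, and Pax6 1456342_at and Tfap2a 1421995_at outside it, 0.16 and 0.25 below.

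Sox2, an HMG-box transcription factor that keeps neural stem cells undifferentiated and is also made in the stomach epithelium, was above the array medians in the muscle preparations and at background in both lines. It is shown with Prom1 as promoter sequence, because these were the listed genes that fell in both lines. The sequences are RefSeq's, build GRCm38.p6, each running from 250 bases before to 50 after an annotated start, 5′ to 3′ on the gene's strand. Sox2 lies at chr3:34649745-34650044 on the plus strand. Prom1 has 2 annotated starts, at chr5:44101687-44101986 (upstream) and chr5:44094719-44095018 (downstream), both on the minus strand. Capitals mark matches, on either strand, to the TATA box (letters TATAAA), the CCAAT box (letters CCAAT), the GC box (letters GGGCGG), the core ACAAAG bound by Sox factors, or its variant with the letters ACAATG; no motif overlapped another.
Sox2: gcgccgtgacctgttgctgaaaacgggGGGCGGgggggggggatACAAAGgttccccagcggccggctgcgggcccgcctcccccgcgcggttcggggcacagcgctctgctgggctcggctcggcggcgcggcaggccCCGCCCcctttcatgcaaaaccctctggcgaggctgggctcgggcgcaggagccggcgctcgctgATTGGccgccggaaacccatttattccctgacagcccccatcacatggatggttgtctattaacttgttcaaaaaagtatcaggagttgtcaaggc
Prom1 upstream start: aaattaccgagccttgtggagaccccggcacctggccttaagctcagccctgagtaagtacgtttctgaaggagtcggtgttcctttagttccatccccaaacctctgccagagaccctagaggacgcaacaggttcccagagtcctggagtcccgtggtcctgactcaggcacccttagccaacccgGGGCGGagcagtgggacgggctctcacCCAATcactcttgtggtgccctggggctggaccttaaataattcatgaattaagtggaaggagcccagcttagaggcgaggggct
Prom1 downstream start: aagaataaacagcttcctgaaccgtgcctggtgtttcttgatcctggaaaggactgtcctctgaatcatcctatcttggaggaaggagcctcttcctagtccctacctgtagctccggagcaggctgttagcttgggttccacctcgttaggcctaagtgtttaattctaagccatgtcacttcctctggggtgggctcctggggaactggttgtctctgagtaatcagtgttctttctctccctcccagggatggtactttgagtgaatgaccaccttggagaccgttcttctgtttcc
The Sox2 window held 1 CCAAT, 2 GC boxes and 1 ACAAAG, the upstream Prom1 window 1 CCAAT and 1 GC box, and the downstream window no match. Of 32851 mouse promoter windows of this length, 37.4% held CCAAT, 35.7% the GC box, 18.7% ACAAAG, 13.6% TATAAA and 12.6% ACAATG. GC content was 66.3% for Sox2 and 57% and 50.3% for the Prom1 windows, with a median of 52.7% over all. A match is a description of the letters and not a binding site. Promoter entries were found for 7 of the 10 genes.

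Sox2 (1416967_at) read 2.56, 2.72 and 2.50 in the tsA58 line, against 6.16, 5.87 and 5.42 in tsA58 tissue. In the C57BL/6J line it read 2.69, 2.57 and 2.80, against 7.83 and 8.09 in C57BL/6J tissue. All 6 line arrays lay below all 5 tissue arrays. Sox2 passed the filter through tissue alone, so neither this nor its line-tissue p-values are support for the difference. Sox2 was lower in the tsA58 line than in tsA58 tissue by -3.22 ± 0.20 (limma adjusted p = 6.4e-07) and in its C57BL/6J counterpart by -5.27 ± 0.23 (adjusted p = 8.07e-08). Because both lines are at background, these changes understate any true difference. Between the lines the difference was -0.09 ± 0.20 (adjusted p = 0.793; 95% interval -0.54 to 0.36), within background on both sides. The tissues did not overlap: tsA58 tissue averaged 5.82 ± 0.37 (SD, n = 3) and C57BL/6J tissue 7.96 ± 0.18 (SD, n = 2), a difference of -2.14 ± 0.23 (limma adjusted p = 0.000233). The same difference was -0.01 with levels set on the hybridisation controls.

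Prom1 (1419700_a_at) encodes prominin-1, a pentaspan membrane glycoprotein of apical protrusions in neural stem cells and in many epithelia. It read 3.09, 3.53 and 3.35 in the tsA58 line, against 7.70, 8.09 and 6.59 in tsA58 tissue. The C57BL/6J line arrays read 3.28, 3.11 and 3.29, against 9.99 and 9.86 in C57BL/6J tissue. As for Sox2, the line arrays were all at background and all below the tissue arrays. Prom1 too passed the filter through tissue alone, so the same limit holds for its line-tissue p-values. Prom1 fell by 4.13 ± 0.32 in the tsA58 line (limma adjusted p = 3.02e-06) and by 6.70 ± 0.36 in the C57BL/6J line (adjusted p = 3.57e-07), each against its tissue. The lines differed by 0.10 ± 0.32 (adjusted p = 0.867; 95% interval -0.61 to 0.80). Between the tissues Prom1 was lower in tsA58, at 7.46 ± 0.78 (SD, n = 3) against 9.92 ± 0.10 (SD, n = 2) in C57BL/6J, a difference of -2.47 ± 0.36 (limma adjusted p = 0.0012) that was -0.34 and no longer called with levels set on the hybridisation controls. Without replicate 3 of the tsA58 line, the array that stood apart, the tsA58 line minus tissue was -3.18 for Sox2 and -4.15 for Prom1, both called, and between the lines Sox9 1451538_at (-2.09), Pax3 1441743_at (-4.30) and Pax3 1430335_a_at (-1.31) were called without it too.

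The tissue arrays also differed in markers of cells other than muscle, and their part in the Sox2 and Prom1 results was not tested. The mean of 10 gastric epithelium markers was 9.45, 11.80 and 9.82 on the tsA58 tissue arrays and 10.43 and 10.20 on the C57BL/6J ones, and all 10 genes were above the array median on every tissue array. On the line arrays that mean was 4.97 to 5.40 for tsA58 and 5.42 to 5.63 for C57BL/6J. Between the tissues 1 of the 10 markers was lower in tsA58 and 0 higher. The mean of 7 exocrine pancreas markers was 4.37, 9.84 and 4.84 on the tsA58 tissue arrays and 11.04 and 5.93 on the C57BL/6J ones. Enteric glia markers (8 genes) averaged 7.88, 6.99 and 7.05 in tsA58 tissue and 6.90 and 6.91 in C57BL/6J tissue, with 3 higher and 1 lower in tsA58. Enteric neuron markers (9 genes) averaged 9.42, 8.27 and 8.98 in tsA58 tissue and 8.41 and 8.60 in C57BL/6J tissue. Endothelial markers (8 genes) ran from 6.00 to 6.86 in tsA58 tissue and from 5.26 to 5.33 in C57BL/6J tissue, and macrophage markers (6 genes) from 7.93 to 9.16 in tsA58 and from 7.35 to 7.47 in C57BL/6J tissue. Within tsA58 tissue, the array with the highest epithelial mean had the highest Prom1, but not the highest Sox2.

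**Figure D2:**
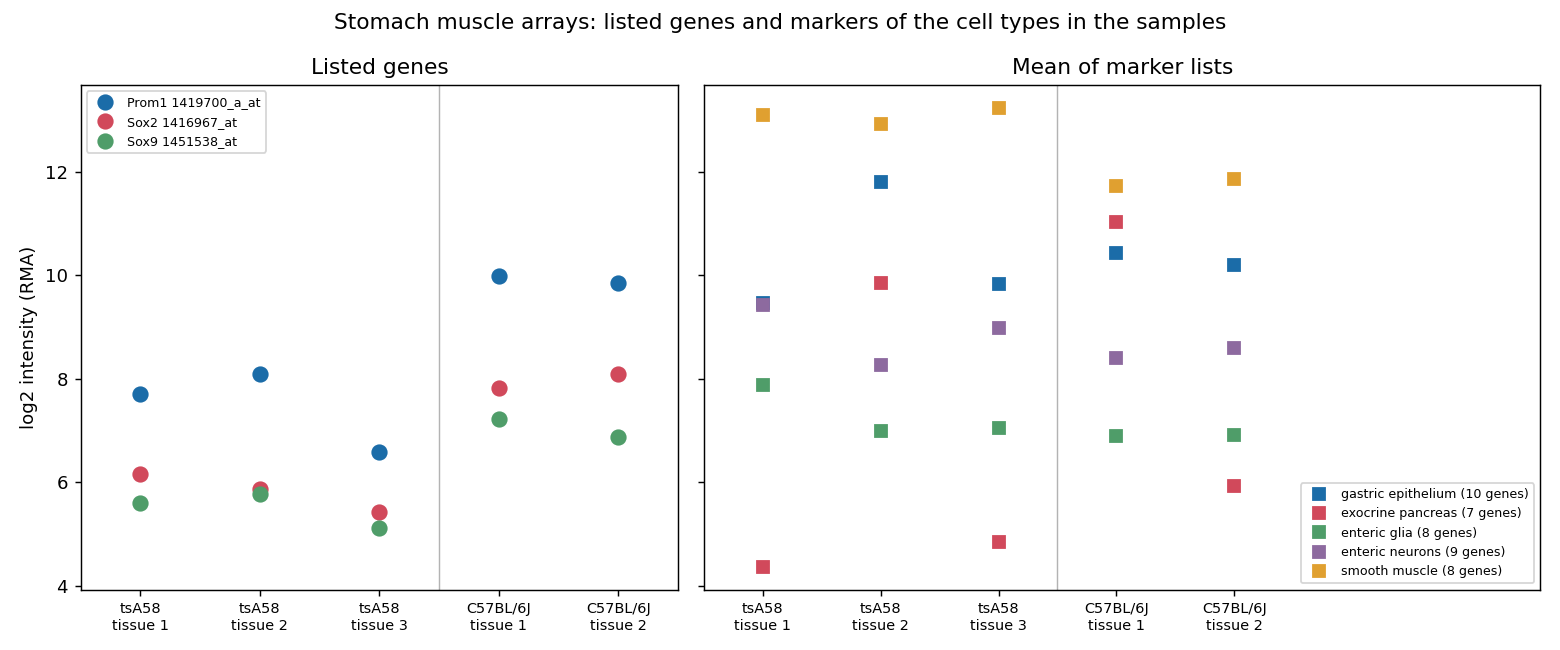
Levels (log2 intensity) of Prom1, Sox2 and Sox9 and the mean levels of marker lists on the 5 tissue arrays, tsA58 left of C57BL/6J, 1 point per array. Prom1 and Sox2 are lower on all 3 tsA58 arrays than on both C57BL/6J arrays, while the exocrine pancreas mean spans 4.37 to 11.04 and splits both groups.

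Pax3, a paired-box factor of the dorsal neural tube and early neural crest, was high in the C57BL/6J line alone. Its probe set 1441743_at read 7.88, 7.74 and 7.18 there, against 3.23 and 3.06 in C57BL/6J tissue. It read 3.30, 3.29 and 3.35 in the tsA58 line, against 3.08, 3.09 and 3.38 in tsA58 tissue. The 3 C57BL/6J line arrays lay above the other 8 arrays with no overlap. The probe set passed the filter through that line alone, so neither this nor its p-values are support. Pax3 1441743_at was lower in the tsA58 line than in the C57BL/6J line by -4.29 ± 0.20 (limma adjusted p = 7.92e-07), and higher in the C57BL/6J line than in its tissue by 4.46 ± 0.23 (adjusted p = 2.59e-07).

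The other Pax3 probe sets were close to the array medians or below them. Pax3 1430335_a_at read 3.08, 3.54 and 3.45 in the tsA58 line, against 4.81, 4.88 and 4.19 in the C57BL/6J line. In tissue it read 2.69, 3.17 and 3.11 for tsA58 and 3.09 and 3.34 for C57BL/6J. Its C57BL/6J line arrays were again the highest. It was lower in the tsA58 line than in the C57BL/6J line by -1.27 ± 0.23 (limma adjusted p = 0.00369), which was 0.22 with levels set on the hybridisation controls, and higher in the C57BL/6J line than in its tissue by 1.41 ± 0.26 (adjusted p = 0.00131). Pax3 1420389_at, the probe set with the highest mean over all arrays, read 4.40, 4.41 and 4.56 in the tsA58 line, against 5.10, 4.85 and 4.79 in the C57BL/6J line. In tissue it lay at 4.14, 4.30 and 4.38 for tsA58 and at 4.56 and 4.56 for C57BL/6J. None of its changes was called: 0.18 ± 0.16 in the tsA58 line minus tissue (adjusted p = 0.387), 0.35 ± 0.18 in the C57BL/6J line minus tissue (adjusted p = 0.128) and -0.46 ± 0.16 between the lines (adjusted p = 0.0606, limma). The C57BL/6J line was highest for all 3 probe sets, each of which passed the filter through that line alone, so this is no support. The size of the change differed between them, as did the order of the other groups.

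Sox9, an HMG-box factor of neural crest, glia, cartilage and epithelial progenitors, was lower in tsA58 than in C57BL/6J by 1 probe set in the lines and by 2 in tissue. Sox9 1451538_at read 5.24, 4.97 and 5.80 in the tsA58 line, against 7.06, 6.68 and 7.85 in the C57BL/6J line. In tissue it read 5.60, 5.77 and 5.12 for tsA58 and 7.22 and 6.88 for C57BL/6J. All 6 tsA58 arrays lay below all 5 C57BL/6J arrays. The 3′ minus 5′ signal of the beta-actin control probe sets, a sign of RNA quality and amplification, also moved with strain, at 0.05 to 0.85 in the tsA58 line against 0.99 to 1.04 in the C57BL/6J line, and 0.41 to 0.47 in tsA58 tissue against 0.84 to 1.02 in C57BL/6J tissue. Its part in the strain differences of Sox9, Sox2, Prom1 and Pax3 was not tested. Sox9 was lower in the tsA58 line than in the C57BL/6J line by -1.86 ± 0.32 (limma adjusted p = 0.00255) and lower in tsA58 than in C57BL/6J tissue by -1.55 ± 0.36 (adjusted p = 0.0111), and with levels set on the hybridisation controls the line difference was -0.37, not called, and the tissue difference 0.57. Without replicate 1 of C57BL/6J tissue the tissue difference was -1.39 and no longer called (limma adjusted p = 0.1). Neither line was called against its own tissue, with -0.16 ± 0.32 for tsA58 (adjusted p = 0.714) and 0.15 ± 0.36 for C57BL/6J (adjusted p = 0.767). The 95% intervals of -0.87 to 0.55 and -0.65 to 0.94 allow moderate changes either way.

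A second Sox9 probe set, 1424950_at, also had all tsA58 arrays below all C57BL/6J arrays. It read 4.74, 4.22 and 4.63 in the tsA58 line, against 5.08, 5.01 and 5.84 in the C57BL/6J line. In tissue it read 4.79, 4.66 and 4.08 for tsA58 and 5.58 and 5.47 for C57BL/6J. Its tissue difference of -1.01 ± 0.30 was called (limma adjusted p = 0.0335), but not when any of 3 tissue arrays was left out: the value was -0.96 (adjusted p = 0.173) without C57BL/6J replicate 1, -1.07 (adjusted p = 0.127) without C57BL/6J replicate 2 and -0.80 (adjusted p = 0.0986) without tsA58 replicate 3. With levels set on the hybridisation controls it was 1.11. Its line difference was -0.78 ± 0.27 and not called (limma adjusted p = 0.0608).

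Vim, the intermediate filament vimentin of mesenchymal and progenitor cells, was far above the array medians in every group. Vim 1450641_at read 13.27, 12.74 and 12.66 in the tsA58 line, against 12.46, 12.12 and 11.91 in tsA58 tissue. In the C57BL/6J line it read 12.23, 11.64 and 12.47, against 11.61 and 11.43 in C57BL/6J tissue. In both strains each line array was above all arrays of its tissue. The changes stayed under 2-fold and were not called: 0.73 ± 0.26 for tsA58 (adjusted p = 0.039) and 0.59 ± 0.29 for C57BL/6J (adjusted p = 0.117). The lines differed by 0.78 ± 0.26 (adjusted p = 0.0506), with no overlap between them. The other probe sets of Vim lay between 10.88 and 12.20, and their C57BL/6J line and tissue arrays overlapped, at -0.22 for 1438118_x_at and 0.05 for 1456292_a_at. In tsA58 each line array was above all arrays of its tissue for both, at 0.49 for 1438118_x_at and 0.73 for 1456292_a_at, neither called. For both the arrays of the 2 lines overlapped, with line differences of 0.41 for 1438118_x_at and 0.27 for 1456292_a_at, neither called.

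Nes, the filament protein nestin that gives neural progenitors their usual histological label, was above the array median on every array. Nes 1449022_at read 6.23, 6.02 and 6.83 in the tsA58 line, against 6.98, 6.88 and 6.78 in tsA58 tissue. The C57BL/6J line arrays read 7.01, 6.75 and 7.05, against 6.91 and 7.06 in C57BL/6J tissue. Line and tissue overlapped in both strains. No change of Nes was called, with -0.52 ± 0.21 for the tsA58 line (adjusted p = 0.0683), -0.05 ± 0.24 for the C57BL/6J line (adjusted p = 0.893) and -0.58 ± 0.21 between the lines (adjusted p = 0.0767). A second Nes probe set, 1418289_at, lay between 5.07 and 5.99 on all arrays, and another, not tested, below the array median on all arrays.

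**Figure D3:**
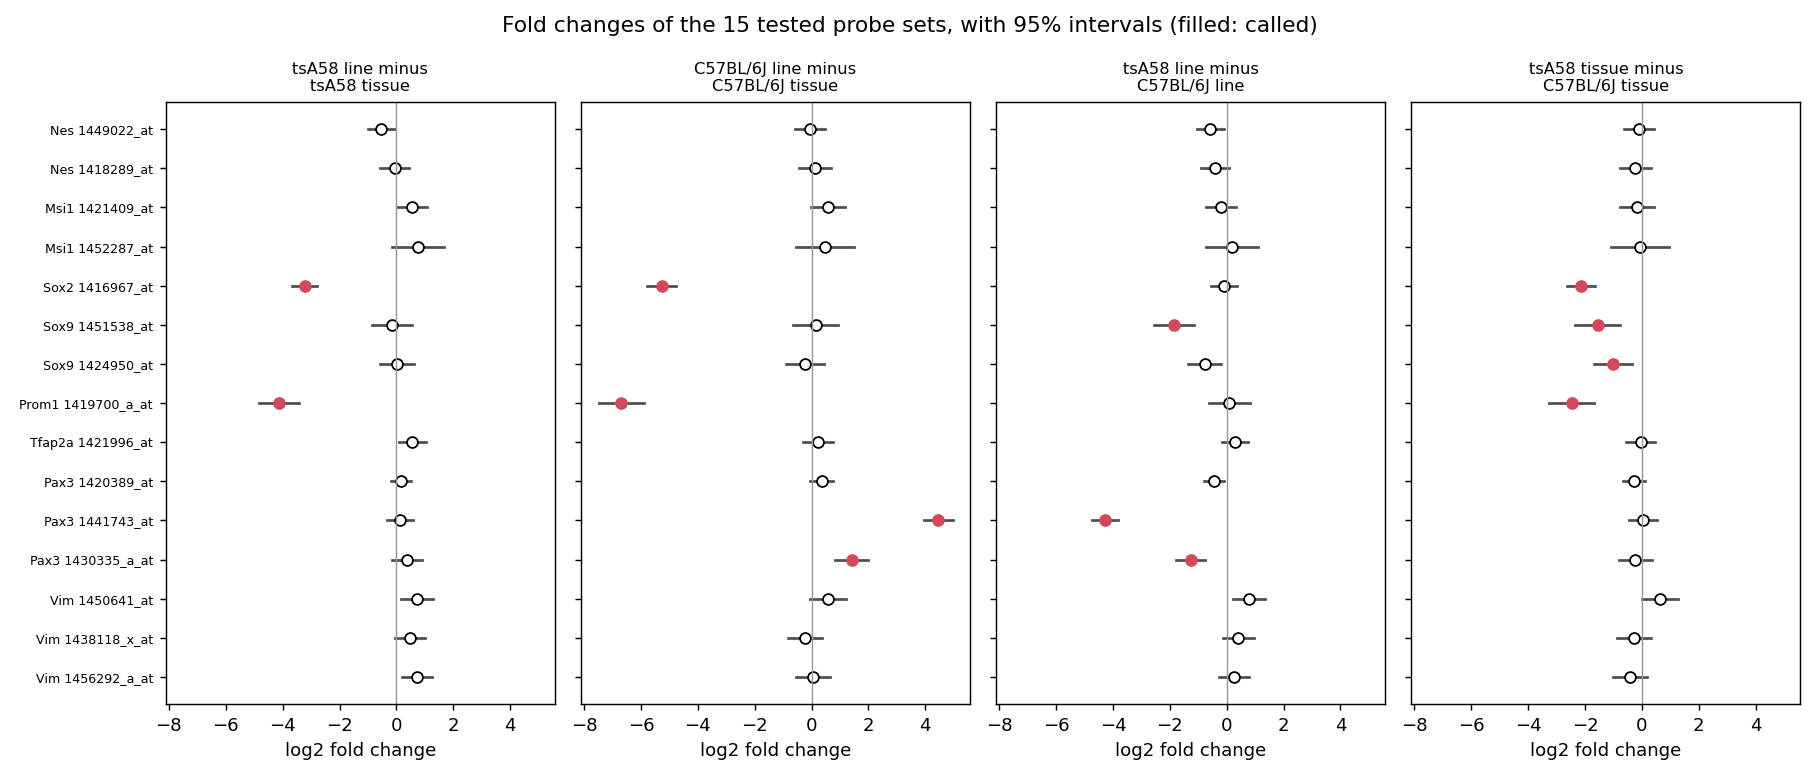
Log2 fold changes of the 15 tested probe sets in 4 comparisons (horizontal axis, log2 fold change; bars, 95% confidence intervals of limma; filled points, called). The intervals of Sox2 and Prom1 lie below 0 in both line-tissue comparisons and those of Sox9 1451538_at below 0 in both strain comparisons, where levels set on the hybridisation controls turned the sign between the tissues.

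Msi1, the RNA-binding protein Musashi-1 that represses translation of Numb, and Tfap2a, the AP-2 alpha factor of crest induction, stood just above the array medians in the lines. Msi1 1421409_at read 5.20, 4.88 and 5.57 in the tsA58 line, against 4.45, 5.02 and 4.55 in tsA58 tissue. In the C57BL/6J line it read 5.53, 5.44 and 5.30, against 4.56 and 5.13 in C57BL/6J tissue. The tsA58 groups overlapped and the C57BL/6J groups did not. Its changes, 0.54 ± 0.24 (adjusted p = 0.0867) for tsA58, 0.58 ± 0.27 (adjusted p = 0.0987) for C57BL/6J and -0.20 ± 0.24 between the lines (adjusted p = 0.587), were not called. A second Msi1 probe set, 1452287_at, ran from 3.35 to 5.34 with all groups overlapping.

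Tfap2a 1421996_at read 5.33, 5.68 and 5.07 in the tsA58 line, against 4.97, 4.65 and 4.77 in tsA58 tissue. The C57BL/6J line arrays read 5.28, 4.84 and 5.08, against 4.65 and 5.03 in C57BL/6J tissue. Only the tsA58 line arrays all exceeded those of their tissue. The change of 0.56 ± 0.21 there had an adjusted p of 0.0491 but was under 2-fold, and neither 0.23 ± 0.24 for C57BL/6J (adjusted p = 0.457) nor 0.29 ± 0.21 between the lines (adjusted p = 0.358) was called. Tfap2a 1426048_s_at, below the filter, read 4.15, 4.79 and 4.04 in the tsA58 line and 3.33, 3.38 and 2.93 in its tissue. With no filter it was called higher in the tsA58 line, by 1.12 ± 0.24 (limma adjusted p = 0.00598), which made 3 listed genes called there.

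Pax6 and Olig2, factors that pattern the neural tube and mark radial glia and oligodendrocyte precursors, were not above the array median anywhere. The Pax6 probe set that came closest to the median, 1456342_at, read 3.99, 3.96 and 4.39 in the tsA58 line, against 4.58, 4.30 and 4.14 in the C57BL/6J line. In tissue it read 4.27, 4.30 and 4.19 for tsA58 and 4.66 and 4.67 for C57BL/6J. Olig2 1416232_at lay between 2.38 and 2.72 on all 11 arrays. A low level of either gene cannot be told from background here. The 11 untested probe sets of the list ranged from 2.38 to 4.79.

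The genes closest to the called members over the 11 arrays were found by the root mean square difference of values, each less its own mean, among 13285 genes; the measure chose them, so no test is given. Closest to Sox2, which had an SD of 2.14 over the arrays, were Tox3 (0.39), Slc38a4 (0.40) and Homer2 (0.41). Tox3 averaged 2.73 ± 0.09 in the tsA58 line, 2.79 ± 0.04 in the C57BL/6J line, 6.78 ± 0.24 in tsA58 tissue and 8.04 ± 0.01 in C57BL/6J tissue (SD). Closest to Prom1 were Dsg2 (0.37), a desmosomal cadherin, Sult1d1 (0.39), a sulfotransferase, and C1qtnf3 (0.40). Dsg2 averaged 3.55 ± 0.18 in the tsA58 line, 3.28 ± 0.10 in the C57BL/6J line, 7.27 ± 1.00 in tsA58 tissue and 9.26 ± 0.05 in C57BL/6J tissue (SD). Closest to Pax3 1441743_at were Ttc9 (0.35), Sh2d5 (0.37) and Rgs16 (0.40), a regulator of G-protein signalling. Rgs16 averaged 4.36 ± 0.19 in the tsA58 line, 8.19 ± 0.77 in the C57BL/6J line, 4.60 ± 0.05 in tsA58 tissue and 4.59 ± 0.12 in C57BL/6J tissue (SD). Closest to Sox9 1451538_at were Fam168a (0.34), Cmtm8 (0.37) and Bace1 (0.42), the beta-secretase. Bace1 averaged 7.34 ± 0.58 in the tsA58 line, 9.08 ± 0.25 in the C57BL/6J line, 7.69 ± 0.34 in tsA58 tissue and 9.41 ± 0.16 in C57BL/6J tissue (SD). For Pax3 1430335_a_at they were Cdkl4, Gaa and Fam210a, and for Sox9 1424950_at Sftpd, Fut11 and Birc6.

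Other genes of the same programmes, from lists made with earlier results known, were read beside the 10. They hold neural stem and progenitor genes (15 of 20 tested), neural crest genes (19 of 27), intermediate filament genes (13 of 14) and the nearest paralogs of the 10 (5 of 15), with some genes in 2 lists. Of the 47 different genes tested, 8 were higher and 24 lower in the tsA58 line than in tsA58 tissue (68.1% called, against 30.5% of all probe sets). Of the same genes 5 were higher and 23 lower in the C57BL/6J line than in C57BL/6J tissue (59.6%, against 34.1%). Between the lines 10 were higher and 3 lower in tsA58 (27.7%, against 14.2%), and between the tissues 3 were higher and 4 lower (14.9%, against 15.9%). Genes such as Fabp7, Dcx, Ret, Ednrb and Nefl passed the filter through tissue alone, and Lhx2 and Emx2 through the tsA58 line alone. This favoured calls, and the lists were made with earlier results known. The shares are thus no support for a difference. Markers of enteric neurons and glia were lower in the lines as well: of 8 tested genes each, 8 and 7 in the tsA58 line, against 8 and 6 in the C57BL/6J line, and their part in these counts was not tested. They are in part the same genes: 6 of the 8 glia markers and 2 of the 8 neuron markers are also in these lists.

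Among the 15 neural stem and progenitor genes tested, 2 were higher and 5 lower in the tsA58 line than in tsA58 tissue, with a median change of -0.48. Of all probe sets 14.6% were higher and 15.9% lower there, and 17.8% and 16.3% in the C57BL/6J line. In the C57BL/6J line 1 was higher and 5 lower, with a median of -0.70. Fabp7, a fatty acid binding protein of radial glia and enteric glia, was lower by -5.77 ± 0.41 in the tsA58 line, against -7.55 ± 0.45 in the C57BL/6J line (limma adjusted p = 1.46e-06 and 8.45e-07). Fabp7 passed the filter through tissue alone, so these p-values are no support for the difference. Cd24a, a surface sialoglycoprotein of neuroblasts, was lower by -2.59 ± 0.33 in the tsA58 line, against -2.44 ± 0.37 in the C57BL/6J line. Dcx, a microtubule protein of young neurons (-2.93 ± 0.37), and the receptor Notch1 (-2.79 ± 0.62) were lower in the C57BL/6J line. Dcx too passed the filter through tissue alone, so the limit given for Fabp7 holds for it. For tsA58, Dcx was at -0.93 ± 0.33 (adjusted p = 0.0411, under 2-fold) and Notch1 at 0.48 ± 0.55 (adjusted p = 0.511), not called. Without replicate 3 of the tsA58 line, Dcx (-1.03) and Notch1 (1.17) were called there, and without replicate 2 of tsA58 tissue Dcx was (-1.27). Higher in the tsA58 line were the LIM-homeobox factor Lhx2 (4.09 ± 0.17) and the homeobox factor Emx2 (2.30 ± 0.70, limma adjusted p = 0.0206). Both passed the filter through the tsA58 line alone, so these calls are no support. For the C57BL/6J line, Lhx2 was at -0.03 ± 0.19 and Emx2 at -0.25 ± 0.78, not called. Emx2 read 5.63, 6.32 and 2.68 in the tsA58 line, against 2.40, 2.63 and 2.70 in tsA58 tissue, so that replicate 3 of the line was at the tissue level. Without it the Emx2 change was 3.40, while leaving out replicate 1 or 2 of the line or replicate 1 of tsA58 tissue ended the call at 1.58 to 2.21.

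Lhx2, like Pax3, stood out in 1 line. It read 7.44, 7.36 and 6.95 in the tsA58 line, against 3.21, 3.33 and 3.27 in the C57BL/6J line. In tissue it read 3.19, 3.14 and 3.14 for tsA58 and 3.33 and 3.28 for C57BL/6J. The lines differed by 3.98 ± 0.17 (limma adjusted p = 4.61e-07). Lhx2 passed the filter through the tsA58 line alone, as did Emx2, so neither gene's p-values are support for a difference from that line. Between the lines Notch1 (2.90 ± 0.55), Emx2 (2.29 ± 0.70) and Slc1a3 (1.24 ± 0.28), a glutamate transporter, were also higher in tsA58, where Msi2, the paralog of Msi1, was lower (-1.19 ± 0.29, but 0.30 with levels set on the hybridisation controls). The line difference of Emx2 lost its call when any 1 of 8 arrays was left out, at 1.57 to 2.35, that of Msi2 without tsA58 line replicate 1, at -0.80, and that of Slc1a3 without tsA58 line replicate 3, at 0.88. Without tsA58 line replicate 3 the line difference was 3.39 for Emx2 and 3.595 for Notch1.

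Among the 19 neural crest genes tested, 4 were higher and 11 lower in the tsA58 line, with a median change of -1.36 (C57BL/6J line: 3 higher, 11 lower, median -1.47). Of all probe sets 14.6% were higher and 15.9% lower in the tsA58 line, and 17.8% and 16.3% in the C57BL/6J line. Twist1 and Myc were called higher in both lines. Twist1 was at 1.83 ± 0.19 in the tsA58 line, against 2.73 ± 0.21 in the C57BL/6J line. Myc was at 3.20 ± 0.30 in the tsA58 line, against 3.33 ± 0.33 in the C57BL/6J line. These calls were not followed under the alternative runs. Receptors of migrating enteric crest cells fell in both lines: Ret by 6.49 ± 0.23 in the tsA58 line, against 6.88 ± 0.25 in the C57BL/6J line, and Ednrb by 5.90 ± 0.20 in tsA58 and 6.02 ± 0.23 in C57BL/6J. Ret averaged 2.96 in the tsA58 line, against 2.70 in the C57BL/6J line, and Ednrb 3.45 in tsA58 and 3.40 in C57BL/6J cells, all below the array medians, so that these falls are set by the tissue levels and understate any true one. Ret and Ednrb passed the filter through tissue alone, so their calls are no support. Id2, a dominant-negative helix-loop-helix protein, fell by 5.18 ± 0.18 in the tsA58 line, against 4.32 ± 0.20 in the C57BL/6J line, and Hand2 by 4.32 ± 0.74 in the tsA58 line (5.44 without its replicate 3) and 4.35 ± 0.83 in the C57BL/6J one. Snai2, the zinc-finger factor of epithelial-mesenchymal transition, was higher in the tsA58 line than in tsA58 tissue (4.40 ± 0.55, limma adjusted p = 0.000108; 5.11 without replicate 3 of the line) and in the C57BL/6J line was at -0.60 ± 0.62, not called (adjusted p = 0.454). Between the lines Snai2 (1.79 ± 0.55) and Msx1 (1.35 ± 0.20) were higher in tsA58, and the Snai2 call was lost when any 1 of 8 arrays was left out (1.34 to 2.06). Without tsA58 line replicate 3 it was 2.50.

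Among the 13 intermediate filament genes tested, 2 were higher and 8 lower in the tsA58 line, with a median change of -3.48 (C57BL/6J line: 1 higher, 7 lower, median -2.34). Vim and Nes were not called. Of all probe sets 14.6% were higher and 15.9% lower in the tsA58 line, and 17.8% and 16.3% in the C57BL/6J line. Des, the muscle filament desmin, was lower by -6.80 ± 0.19 in the tsA58 line, against -4.14 ± 0.21 in the C57BL/6J line. Synm, the desmin partner synemin, was lower by -6.01 ± 0.40 in tsA58 and -7.38 ± 0.45 in C57BL/6J, and Nefl, the light neurofilament, by -4.61 ± 0.28 in tsA58 and -4.57 ± 0.32 in C57BL/6J. Nefl passed the filter through tissue alone, so its calls are no support. Krt8, an epithelial keratin, was lower by -6.14 ± 0.42 in tsA58 and -2.90 ± 0.47 in C57BL/6J, and Prph, of peripheral neurons, by -4.09 ± 0.32 in tsA58 and -4.52 ± 0.36 in C57BL/6J. Between the lines Krt8 (-4.13 ± 0.42) and Krt19 (-2.63 ± 0.73) were lower in tsA58, and Synm (1.47 ± 0.40) and the lamin Lmnb1 (1.25 ± 0.29) higher. Leaving out 1 array ended the line difference of Synm for 4 arrays (1.31 to 1.44), of Krt19 for 4 (-2.82 to -1.67; -3.40 and called without tsA58 line replicate 3) and of Lmnb1 for 2 (1.08 and 1.21).

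Of the paralogs, Sox10, the crest and glial factor, was lower in the tsA58 line by -1.79 ± 0.38 (limma adjusted p = 0.00295) and in the C57BL/6J line by -1.52 ± 0.42 (adjusted p = 0.0128), where without replicate 2 of C57BL/6J tissue it was -1.35 and not called. Msi2 was lower in the tsA58 line by -1.71 ± 0.29 (adjusted p = 0.00081) and in the C57BL/6J line was at -0.58 ± 0.32, not called (limma adjusted p = 0.17). Of the 15 paralogs 10 were not tested, among them Sox1, Pax7 and Olig1.

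**Figure D4:**
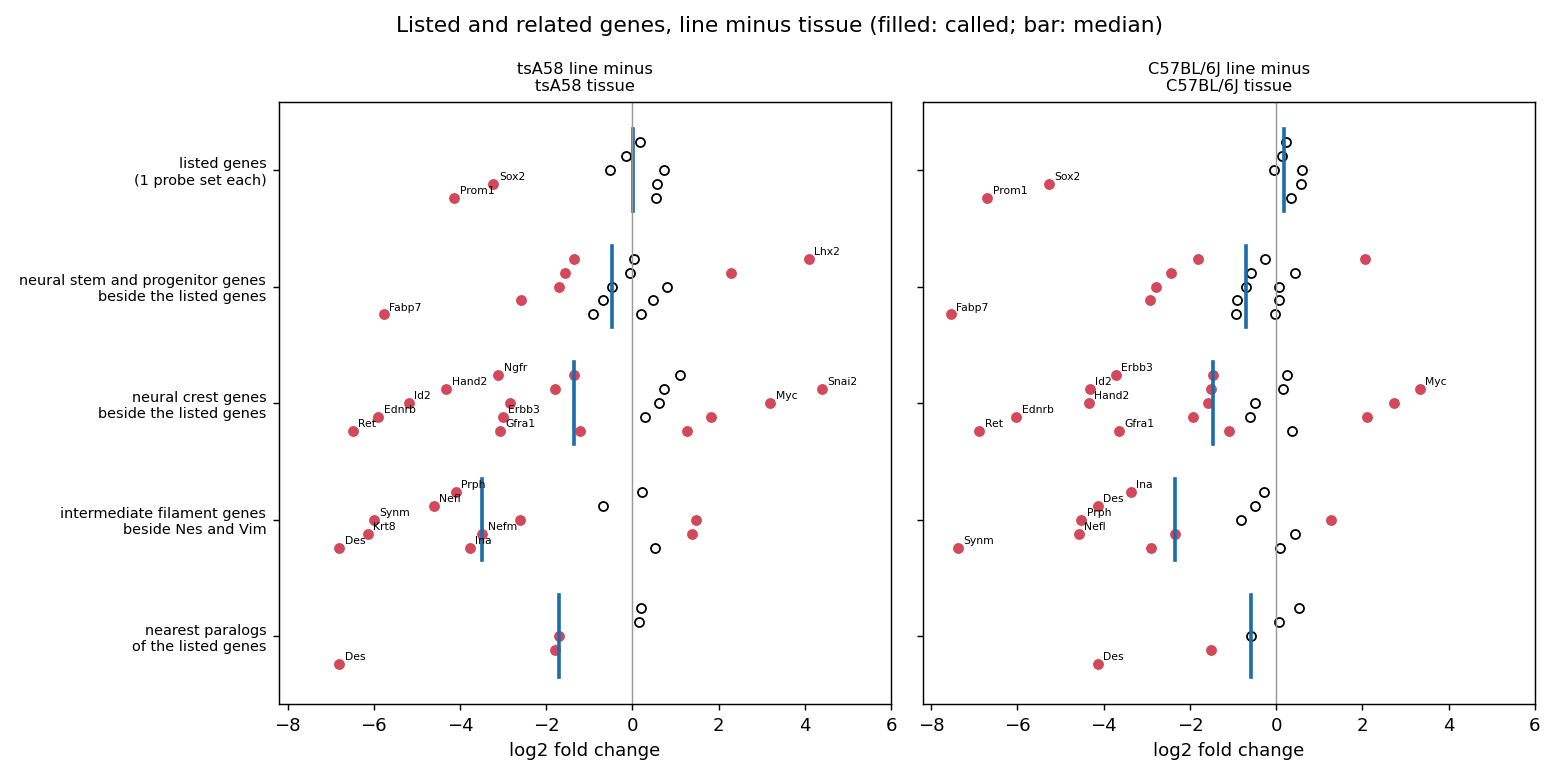
Line minus tissue (log2 fold change) of the 10 genes' tested representatives and of 4 lists of related genes, tsA58 left of C57BL/6J, 1 point per gene; filled points were called. Most related genes lie below 0 in both strains, and of the 47 tested 68.1% were called in tsA58 and 59.6% in C57BL/6J. Some passed the filter through tissue alone, so these shares are no support for a difference.

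The line-tissue difference was itself compared between the strains, as tsA58 minus C57BL/6J. Of the 15 tested listed probe sets 3 were called (20%), 2 higher and 1 lower, against 22.3% of all (10% higher, 12.3% lower). For Sox2 the difference was 2.05 ± 0.31 (limma adjusted p = 0.0014) and for Prom1 2.56 ± 0.48 (adjusted p = 0.00415), that is, a smaller fall in tsA58. With levels set on the hybridisation controls these were 1.41 for Sox2 and 1.93 for Prom1, and neither was called. Both genes were at background in both lines, so this value is set by the tissue levels. For Pax3 1441743_at it was -4.32 ± 0.30 (adjusted p = 3.33e-05), and for Pax3 1430335_a_at -1.04 ± 0.35, which was not called (adjusted p = 0.0528).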

How the data were processed

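Transcript levels came from 11 Affymetrix mouse arrays, 1 per sample, put in 4 groups by title and strain. Per the labels, about 50 ng of RNA went through 2 rounds of amplification. The authors deposited 1 log2 intensity for each probe set and array. Per the submitters' processing notes RMA was used (version not given in the sources used here). Array medians ran from 4.66 to 4.84. They carry no detection calls. The titles call the replicates biological and the design text gives more than 1 array to a sample. Neither says that arrays came from separate cultures or animals, so p-values measure only the spread between these samples, which may be technical. The number of arrays limits the precision.

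Of 45101 probe sets, 64 were controls, 34945 had 1 symbol, 932 several and 9160 none. Those above the array median on at least 2 arrays (26903) went into a linear model by limma 3.58.1 under R 4.3.3 (lmFit and eBayes with 4 group means, 7 residual and 3.71 prior degrees of freedom), in 5 comparisons, with Benjamini-Hochberg adjustment within each. A call needed an adjusted p under 0.05 and a 2-fold change. The fit was tested on simulated data. Plots were drawn with matplotlib 3.10.9, pandas 2.3.3 and numpy 2.4.6 under Python 3.11.15.

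The 10 genes, the gene lists and the marker lists were chosen with earlier results of these data known. The probe set with the highest mean stood for its gene. All 10 genes are named, for each called member probe set the 3 genes closest to it, and from each list of related genes up to 4 called genes with the largest change in the comparisons involving a line (a gene named for 1 line against tissue is also given for the other). Twist1 and Myc are given besides, as crest genes called higher in both lines. Alternatives were quantile normalisation, centring on hybridisation controls, other filters, 1 probe set per gene, fits of the compared groups only, a replicate block and leaving out each array. Replicate numbers did not pair the samples: deviations of same-numbered arrays correlated at -0.16 to 0.22 over 15 pairs of arrays.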

Additional observations from a re-analysis of the deposited data

Results flagged for a closer look

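In 3 cases the line-tissue difference itself differed between the strains, by limma's test of that difference (log2 scale, tsA58 minus C57BL/6J). Sox2 gave 2.05 and Prom1 2.56, the line being lower than tissue in both strains and by less in tsA58. Both genes were at background in both lines, so these values are set by the tissue levels. With levels set on the hybridisation controls they were 1.41 for Sox2 and 1.93 for Prom1, and neither was called. Pax3 1441743_at gave -4.32, the line being higher than tissue in C57BL/6J, with no call in tsA58. Outlying arrays were not sought, since each group holds 2 or 3.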

How the results depend on the processing

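Of the 16 called results for the 10 genes, 8 kept their direction and call under every alternative run that held their probe set. They were Sox2 and Prom1 in both line-tissue comparisons, Pax3 1441743_at in its 3 comparisons and Pax3 1430335_a_at in the C57BL/6J line minus tissue. The run with only the highest-mean probe set of each gene did not hold these Pax3 probe sets, and Pax3 was called in no comparison there. All of these probe sets passed the filter through tissue alone or the C57BL/6J line alone, which favoured a call. Of the 47 named results for related genes, 28 kept their direction and call under every alternative run. Here too some genes, such as Fabp7, Ret and Lhx2, passed the filter through tissue alone or the tsA58 line alone.

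Centring on the hybridisation controls moved most. It ended the calls of Sox9 1451538_at between the lines (-0.37), of Sox2 (-0.01) and Prom1 (-0.34) between the tissues, and of the strain difference of Sox2 (1.41) and Prom1 (1.93). It turned the sign for Sox9 between the tissues (0.57 for 1451538_at, 1.11 for 1424950_at), for Pax3 1430335_a_at (0.22), Pax3 1420389_at (1.03), Msi1 (1.28), Sox2 (1.40), Nes (0.91) and Msi2 (0.30) between the lines, for Lhx2 (1.20), Emx2 (0.98), Snai2 (0.63) and Msi2 (0.65) in the C57BL/6J line, for Nes in the C57BL/6J line (1.19) and the tsA58 line (0.073) and for Sox9 1451538_at in the tsA58 line (0.44), each against tissue. Listed genes called became 5 in the C57BL/6J line (3 higher, 2 lower), 6 between the lines (5 higher, 1 lower), 5 between the tissues (all higher) and 1 for the strain difference (lower). Probe sets called between the lines became 16320 (16140 higher, 180 lower, against 2342 and 1486), between the tissues 23747 (23701 and 46, against 2645 and 1625) and for the strain difference 1226 (322 and 904, against 2689 and 3318). In the C57BL/6J line 10930 were higher and 1241 lower (against 4793 and 4375), and in the tsA58 line 4247 and 1872 (against 3919 and 4273). Quantile normalisation gave 2066 higher and 2007 lower between the tissues and -0.99 for Sox9 1424950_at, under 2-fold. The cause was not tested.

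With 1 probe set per gene, fewer features were tested, and 4530 were called in the C57BL/6J line, 4214 in the tsA58 line, 1880 between the lines, 1696 between the tissues and 2702 for the strain difference; Pax3, then represented by 1420389_at, was called in no comparison, which left 1 listed gene between the lines, 2 in the C57BL/6J line and 2 for the strain difference.

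Leaving out 1 array at a time gave 7795 to 9432 called probe sets in the C57BL/6J line, 7605 to 8811 in the tsA58 line, 2733 to 5381 between the lines, 2312 to 4663 between the tissues and 3578 to 8031 for the strain difference. The counts of 2312 and 3578 came without C57BL/6J tissue replicate 1, and without replicate 2 they were 2733 and 3791. Listed genes called ran from 3 to 3, 2 to 3, 2 to 2, 2 to 3 and 3 to 3 in the same order. Uncalled values near 0 turned sign: Nes in the C57BL/6J line ran from -0.12 to 0.046, Sox9 1451538_at from -0.18 to 0.40 there and from -0.39 to 0.024 in the tsA58 line, and Prom1 between the lines from -0.004 to 0.21. Sox9 1451538_at between the tissues ran from -1.72 to -1.37 and Sox9 1424950_at from -1.16 to -0.80.

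With the replicate number as a block, 8963 probe sets were called in the C57BL/6J line, 8139 in the tsA58 line, 3715 between the lines, 3817 between the tissues and 5111 for the strain difference. The block ended the call of Sox9 1424950_at between the tissues (-1.05, adjusted p = 0.0594) and no other named call, and turned the uncalled C57BL/6J line values of Lhx2 (0.019) and Emx2 (0.12). The titles do not say that same-numbered arrays belong together.

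Limits are 2 or 3 arrays a group, levels near the array median that cannot be told from background, and lines at background for Sox2, Prom1, Ret and Ednrb, where changes are understated.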
